A study of Homo sapiens with 6 samples.

Results

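The interferon-stimulated genes are 38 genes that cells switch on in response to interferon. They were chosen by symbol from a list of classical members, and all 38 were among the 16000 genes measured in every one of 6 human lung adenocarcinoma lines. The lines were the parental PC-9 and HCC827, both of which carry activating EGFR mutations, and the derivatives PC-9GR and PC-9ER of the first and HCC827GR and HCC827ER of the second, all with acquired resistance to inhibitors of the EGFR kinase. The study asked which signalling pathways accompany that resistance. The labels leave GR and ER unexplained, give no interferon treatment and give no dose or duration of inhibitor. They do not say whether a derivative is 1 clone, and HCC827GR is written HCC82GR in its label. All lines grew in RPMI medium with serum, and ribosomal RNA was removed from total RNA before stranded sequencing. Each line has 1 library, so a difference between 2 lines has no replicate check. Levels are in CPM, counts scaled to 1000000 per library, and where 6 values follow each other they run from PC-9 with its GR and then its ER derivative to HCC827 with its GR and then its ER derivative.

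Interferons of type I and type III bind receptors that activate the kinases JAK1 and TYK2, which phosphorylate STAT proteins. STAT2 and IRF9 are parts of ISGF3, a transcription factor complex that binds the interferon-stimulated response element (ISRE) in promoters of target genes. Interferon gamma acts mainly through a different element, the gamma-activated sequence (GAS). The target genes sense viral RNA, block virus replication and release, or tag proteins with the small modifier ISG15. Many are transcribed at a low level without added interferon, and tumour lines are known to differ in this resting level.

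The response element stands in the promoters of many of the members, and 7 of them are shown because they belong to genes that differ most between the lines below or because several elements sit together. The search took the ISRE core, GAAANNGAAA, and the GAS core, TTCNNNGAA, on both strands of a 300-base window from 250 bases before to 50 after the gene start, with sequences from RefSeq (GRCh38.p14). A window was found for 31 of the 38 members (not for IFIT2, IRF7, MX2, OAS2, OASL, TRIM22 and USP18). The ISRE core was present in 19 of the 31 (61.29%), against 3.65% of all 27305 promoter windows. The GAS core was present in 8 of the 31 (25.81%), against 7.88% of all windows. Both cores were present in BST2, DDX60, IFI27 and PARP14, and in BST2 and IFI27 they share bases. A match describes letters in a window and was not tested as a binding site. Capitals below mark the bases of the ISRE core on either strand, each sequence is written 5′ to 3′ along its gene, and all end before the gene start.
ISG15, chr1:1013377-1013406, plus strand: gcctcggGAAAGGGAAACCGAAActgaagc
IFI6, chr1:27672269-27672355, minus strand: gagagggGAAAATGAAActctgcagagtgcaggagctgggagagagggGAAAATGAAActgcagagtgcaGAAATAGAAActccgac
IFI44, chr1:78649764-78649787, plus strand: cactgagTTTCAGTTTCctttctc
SAMD9, chr7:93118099-93118122, minus strand: gagaaatGAAACTGAAAccaaacc
BST2, chr19:17405738-17405767, minus strand: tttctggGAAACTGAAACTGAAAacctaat
IFIT1, chr10:89392500-89392536, plus strand: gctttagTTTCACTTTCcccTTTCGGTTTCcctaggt
HERC5, chr4:88456987-88457061, plus strand: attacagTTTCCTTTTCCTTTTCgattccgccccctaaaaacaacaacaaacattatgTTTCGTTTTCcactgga

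In ISG15 and BST2 neighbouring elements share their middle GAAA block, IFI6 carries 3 separate elements, and HERC5 has a pair that overlap and a further one downstream. Members also lie together in the genome. IFIT1, IFIT2, IFIT3 and IFIT5 are neighbours on chromosome 10, OAS1, OAS2 and OAS3 on chromosome 12, SAMD9 and SAMD9L on chromosome 7, HERC5 and HERC6 on chromosome 4, MX1 and MX2 on chromosome 21, IFI44 and IFI44L on chromosome 1, and CMPK2 and RSAD2 on chromosome 2.

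The libraries held 14529332 to 17859787 counts, and 3 counts, the most that a count of 0 allows, correspond to 0.168 to 0.207 CPM. All 6 epithelial markers were at 1 CPM or more in every library. Of 8 leukocyte markers 6 were listed, PTPRC and MS4A1 not among them, with summed levels of 2.20 to 12.3 CPM and CD3E at 0 to 0.0688 CPM. Of the plasmacytoid dendritic cell markers, CLEC4C and LILRA4 were not listed, and IL3RA was at 0 to 0.174 CPM. TCF4 was at 15.2, 3.14 and 6.44 CPM in the lines of PC-9 origin. It was at 0.0668 to 0.231 CPM in those of HCC827 origin. Summed fibroblast markers were at 2.60 to 41.2 CPM, most of it COL1A1, and summed endothelial markers reached 220 CPM in PC-9 and 55.7 CPM in PC-9ER against at most 0.895 CPM elsewhere. The library labelled PC-9GR stands apart: its Spearman correlation with PC-9 over 13778 genes was 0.774, below the 0.831 between PC-9 and HCC827, while the other derivatives were at 0.888 to 0.960 with their parents. This PC-9GR library was at 0.821 with HCC827, 0.828 with HCC827GR, 0.796 with HCC827ER and 0.798 with PC-9ER, each above its correlation with PC-9. Of its epithelial markers EPCAM and KRT19 were at 383 and 1939 CPM in PC-9 and at 1.90 and 13.05 CPM in this library, while KRT8 and KRT18 were higher in it. HCC827GR also had less EPCAM and KRT19 than its parent, at 28.98 and 225 CPM against 460 and 2159 CPM. Member medians of edgeR fits that include PC-9GR among the lines compared are therefore given with and without it, as are some of the counts. PC-9ER and HCC827ER, and no other line, come from a second deposited table, so a difference of the tables and of the ER lines cannot be told apart. Ribosomal protein genes took 16.1% of the counts of HCC827ER and 5.85% to 8.50% elsewhere.

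The interferon-stimulated genes were expressed at low to moderate levels in all lines, and HCC827 had the most of them at an appreciable level. At least 10 CPM was reached by 23 members in HCC827, 15 in its GR and 17 in its ER derivative, and by 9 members in PC-9, 13 in its GR and 10 in its ER derivative. The median member was at 3.21, 6.31, 3.28, 11.9, 8.41 and 9.08 CPM. HCC827 was the line with the highest level for 14 of the 38 members, PC-9GR and HCC827ER for 8 each, HCC827GR for 5, PC-9 for 2 and PC-9ER for 1. The counts at 10 CPM and of highest levels were not set against all genes. At least 1 CPM was reached by 27 members in PC-9 and 32 in HCC827. Over all genes that level was reached by 11996 in PC-9, the fewest, and 12160 in HCC827, the most. The summed level does not follow the median, because LGALS3BP alone, a secreted glycoprotein that binds galectins, made up 495 of the 899 CPM in PC-9. Without it the members summed to 404, 560, 445, 842, 597 and 575 CPM.

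**Figure D1:**
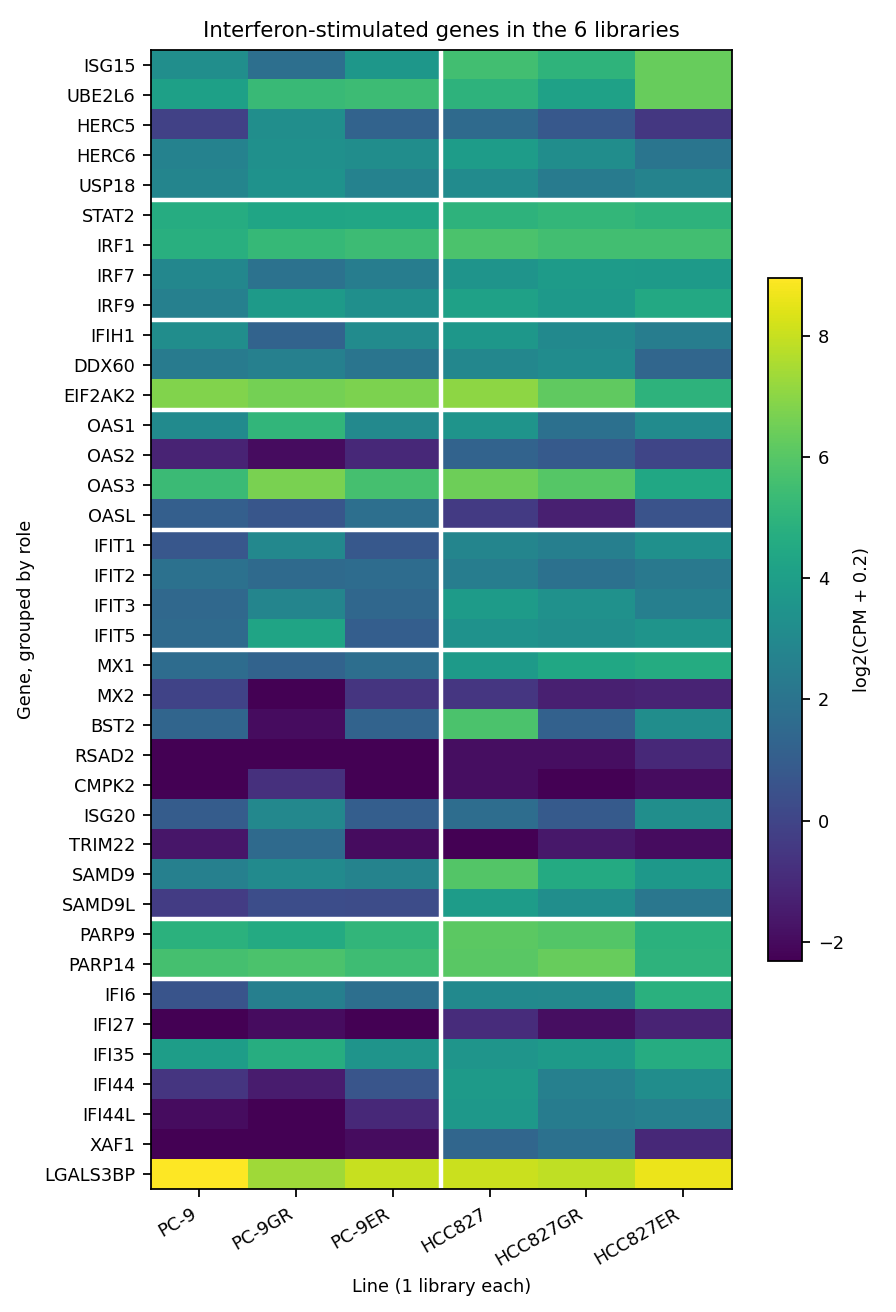
Level of each of the 38 genes (rows, grouped by role and separated by white lines) in each library (columns, lines of PC-9 origin left and of HCC827 origin right), as log2 of CPM plus 0.2. LGALS3BP is the brightest row, and IFI27, MX2, RSAD2 and CMPK2 stay under 1 CPM in all 6 libraries.

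Per kilobase of transcript, which allows genes to be compared, LGALS3BP was first in every library, at 67.6 to 206 CPM per kilobase. ISG15 was second in PC-9 (13.1), HCC827 (65.7), HCC827GR (44.6) and HCC827ER (113 CPM per kilobase), and UBE2L6 was second in PC-9GR (29.7) and PC-9ER (31.6 CPM per kilobase). BST2 came next in HCC827, at 53.8 CPM per kilobase. IFI27, MX2, RSAD2 and CMPK2, usually among the genes that interferon induces most strongly, stayed under 1 CPM in every line. RSAD2, which encodes the antiviral enzyme viperin, had no count in any line of PC-9 origin and 1, 1 and 5 counts in the lines of HCC827 origin.

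The parental lines differed in their resting level, and HCC827 had the higher one. Of 33 members with at least 1 CPM in either parent, 18 were at least 2-fold higher in HCC827 and 1 (OASL) was at least 2-fold lower. Among all 12910 genes measured the shares were 19.3% higher and 19% lower. The median log2 ratio of HCC827 to PC-9, with a prior count of 2, was 1.03 over the members and 0.03 over all genes. With 1 library a side these are descriptions, and the intervals that follow are exact, at 95%, and cover counting error only.

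The widest gap was in IFI44L, of little-known function, with 1 count in PC-9 and 184 in HCC827, a ratio of 214 (37.9 to 8498). Its neighbour IFI44 was at 0.473 and 14.0 CPM, a ratio of 29.7 (14.8 to 69.6). The endosomal antiviral factor SAMD9L was at 0.592 and 14.9 CPM, a ratio of 25.1 (13.4 to 53.1). Both members of the IFI44 pair and both of the SAMD9 pair thus stood higher in HCC827. BST2, also called tetherin, which holds budding virus particles at the cell surface, was at 2.37 and 54.8 CPM, a ratio of 23.1 (16.8 to 32.6). SAMD9 was at 5.74 and 61.6 CPM, a ratio of 10.7 (8.69 to 13.4). XAF1, a pro-apoptotic partner of the inhibitor of apoptosis XIAP, had no count in PC-9 and was at 2.42 CPM in HCC827, at least 13.6-fold higher against 3 counts in PC-9. The ubiquitin-like modifier ISG15 was 5.03-fold higher (4.22 to 6.02) and the dynamin-like GTPase MX1 4.71-fold higher (3.40 to 6.48). In the other direction, OASL had a ratio of 0.282 (0.113 to 0.623) and LGALS3BP of 0.530 (0.510 to 0.551).

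**Figure D2:**
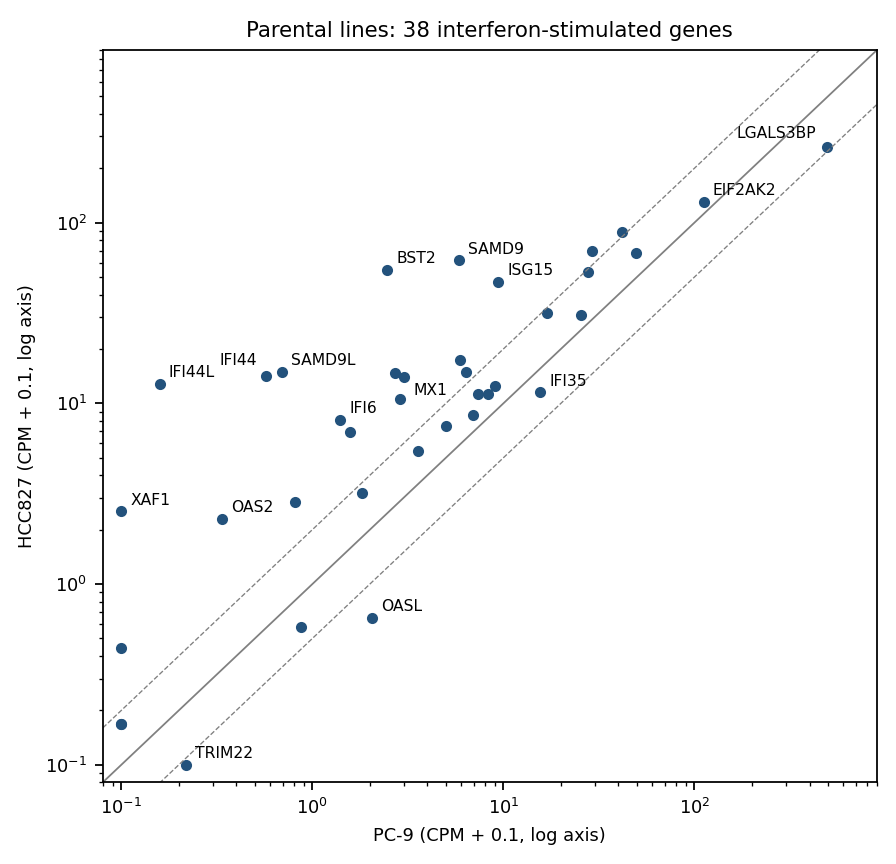
Level of each of the 38 genes in PC-9 (horizontal) and HCC827 (vertical), 1 library each, as CPM plus 0.1 on log axes, with a solid line at equal levels and dashed lines at 2-fold. Most points lie above the solid line, IFI44L, IFI44, SAMD9L, BST2 and XAF1 farthest from it, and OASL lies below the lower dashed line.

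With the derivatives added, 12 of 34 members with at least 1 CPM in any library were higher in each of the 3 lines of HCC827 origin than in each of the 3 lines of PC-9 origin, against 12.5% of all 13778 genes. The 12 were IFI44, IFI44L, IFI6, IRF1, IRF7, ISG15, MX1, OAS2, SAMD9, SAMD9L, STAT2 and XAF1. OASL was the 1 member with the opposite order, against 14% of all genes, and its groups overlapped under TMM scaling. Leaving out the library labelled PC-9GR gave 16 members, against 22.9% of all genes, with IFIT1, IFIT3, IFIT5 and IRF9 added.

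MX1 shows the pattern most clearly, at 2.93, 2.22, 3.18, 13.8, 21.1 and 24.0 CPM. The lines of PC-9 origin lie close together and far below all lines of HCC827 origin. ISG15 was at 9.29, 3.25, 12.4, 46.7, 31.7 and 80.5 CPM, again without overlap but with a wide spread inside each origin. The levels of SAMD9L were 0.592, 1.06, 1.04, 14.9, 9.28 and 4.22 CPM. The origins did not overlap here either, although HCC827ER came nearest to the lines of PC-9 origin.

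Across all genes, edgeR's quasi-likelihood test of HCC827 origin against PC-9 origin (3 lines each, parental or derived as a covariate, Benjamini-Hochberg adjustment over 14233 genes) called 42 genes at 0.05, which is 0.295%. None of the 35 members tested was among them. An unadjusted edgeR p under 0.05 was found for 11 of the 35, against 2539 of all 14233 genes. Of the 35 fitted changes 27 were above 0, with a median of 0.63 against -0.02 over all genes. The smallest adjusted p of the members was 0.0871, for MX1, whose fitted log2 change was 2.87 ± 0.52 (SE). IFI44L followed at 5.98 ± 1.39 and SAMD9L at 3.33 ± 0.77, both with an edgeR adjusted p of 0.145. DESeq2 on the same counts called 8 members higher in HCC827 origin (IFI6, IFI44, IFI44L, ISG15, MX1, XAF1, SAMD9 and SAMD9L). It called 5.16% of all genes higher. Limma-voom called 0 members, with 11 at an unadjusted p under 0.05, against 2552 of all 14233 genes. Without the library labelled PC-9GR edgeR called IFI44L, MX1 and SAMD9L, 3 of 34 members, a share near the 9.29% of all genes called in that fit. There 30 of the 34 fitted member changes were above 0, with a median of 0.70 against 0.03 over all genes. The 3 lines of an origin share a parent and are not independent, so a p here concerns these 2 families of lines only.

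No member was called as changed in the resistant lines together, and the 4 pairs differed in their counts. In PC-9GR more members were at least 2-fold higher than lower, PC-9ER lay near PC-9, HCC827GR was mostly lower than HCC827, and HCC827ER had more members lower than higher, as did all genes in that pair. For derived against parental lines (line of origin as a covariate) edgeR called 0 of 35 members, with 0 at an unadjusted p under 0.05, against 0% of all genes called. DESeq2 called 0 members as well, with 0 at an unadjusted p under 0.05, and limma-voom 0, with 1. The fitted change was above 0 for 15 members and below 0 for 20, with a median of -0.05. This balance depended on the libraries in the fit: the median was 0.03 without HCC827GR and -0.21 without PC-9GR. Without a parent, its derivatives no longer inform this comparison, which then rests on the other family alone. The median was 0.39 without HCC827 (23 above 0 and 12 below), from the PC-9 family. It was -0.28 without PC-9, from the HCC827 family. Within each family edgeR called 0 members and 0% of all genes, the median member change being 0.39 in the derivatives of PC-9 (0.11 without PC-9GR) and -0.34 in those of HCC827 (-0.04 without HCC827GR and -0.55 without HCC827ER). The difference between these changes had a median of -0.51 (-0.45 without PC-9GR and -1.34 without HCC827ER), and edgeR called 0 members and 0% of all genes for it. For these 3 comparisons edgeR had 0 members at an unadjusted p under 0.05. DESeq2 called 0 members, with 0, 1 and 0 at an unadjusted p under 0.05, and limma-voom called 0, with 0, 2 and 0. Without PC-9ER, edgeR called 1 member in PC-9GR against PC-9, BST2, at -5.18 ± 1.63 with an adjusted p of 0.0221, against 8.65% of all genes called in that fit. That is 1 library against 1, with the spread taken from the lines of HCC827 origin.

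Single pairs can only be described, and a gene counts as different here when its log2 ratio was at least 1 either way and 1 of the 2 libraries reached 1 CPM. In PC-9GR, 11 of 30 members were higher and 4 lower than in PC-9, where 20.9% of all genes were higher and 20.9% lower. The share of members higher was above that background and the share lower was under it. In PC-9ER 4 of 30 were higher and 0 lower, against 5.49% and 7.6% of all genes. In HCC827GR 0 of 32 were higher and 5 lower than in HCC827, against 8.18% and 8.79% of all genes, and 30 of the 38 log2 ratios were below 0, with a median of -0.53 against 0.06 over all genes. In HCC827ER 5 of 33 were higher and 15 lower, against 11.3% and 28.3% of all genes. The median of all genes there was itself -0.35. With TMM scaling, which brought it to 0.00, 7 members were higher (ISG15 and MX1 added) and 10 lower (without IFI44L, IFIH1, IFIT3, PARP9 and PARP14), and the members' median moved from -0.39 to -0.04. Under that scaling 17.7% of all genes were higher and 19.1% lower. The 2 pairs of a parent share that parent's library.

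**Figure D3:**
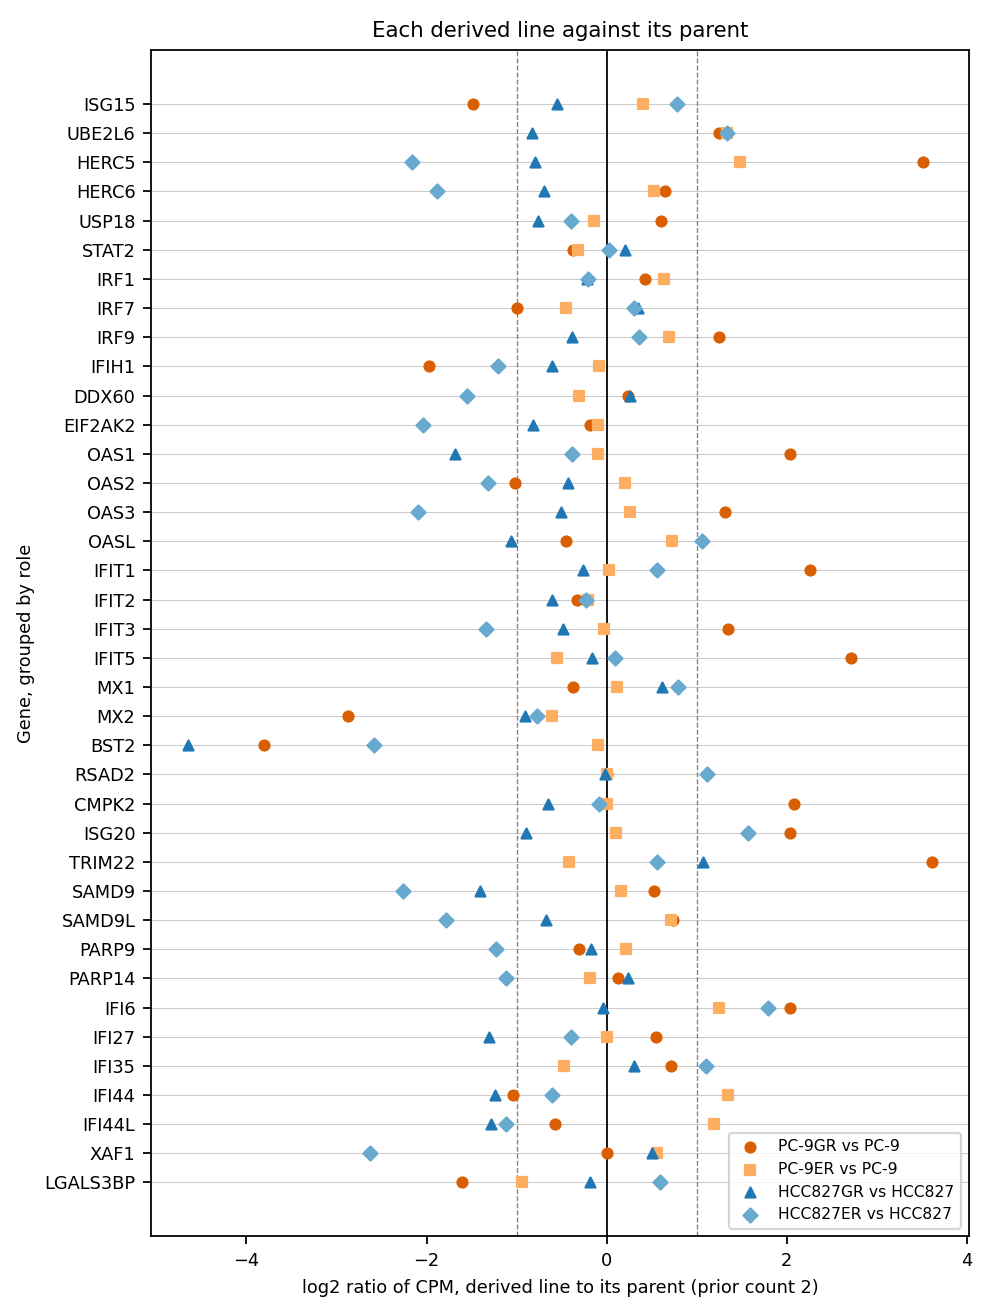
Log2 ratio of CPM (prior count 2, total-count scaling) of each derived line to its parent for the 38 genes, grouped by role, with dashed lines at 2-fold either way. BST2 lies far left in 3 of the 4 pairs, the PC-9GR points spread widest to the right, and most HCC827GR points lie left of 0.

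Transcripts of receptors and kinases upstream of the members were present in all lines, whereas most interferon genes were not listed and so have no measured level here. Of 10 interferon genes looked for, IFNE alone was listed for all 6 libraries. It was at 0.118, 0.392, 0.0580, 1.17, 0.401 and 0.116 CPM, or 2, 7, 1, 17, 6 and 2 counts, highest in HCC827. The type I receptor chain IFNAR1 was at 71.5, 67.1, 46.2, 58.8, 85.6 and 28.1 CPM and its partner IFNAR2 at 20.1, 36.2, 17.3, 36.1, 46.3 and 32.1 CPM. The lambda receptor chain IFNLR1 was lower, at 2.54 to 7.02 CPM. The gamma receptor chain IFNGR1 was at 65.9, 38.4, 129, 16.9, 20.1 and 27.9 CPM, every line of PC-9 origin above every line of HCC827 origin. Its partner IFNGR2 ranged from 39.2 to 61.2 CPM.

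JAK1, the kinase shared by these receptors, ranged from 194 to 496 CPM and TYK2 from 46.7 to 82.6 CPM. JAK2, which serves the gamma receptor, was at 12.2 CPM in PC-9GR and 2.26 to 3.72 CPM elsewhere. STAT3 ranged from 172 to 289 CPM and IRF3 from 75.2 to 134 CPM. None of these receptors and kinases was called by edgeR in any of the 5 comparisons.

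Among the 4 transcription factors that are members, 1 differed by at least 2-fold in any pair. Of all genes 20.9% were at least 2-fold higher and 20.9% lower in PC-9GR, and 5.49% and 7.6% in PC-9ER. The shares were 8.18% and 8.79% in HCC827GR and 11.3% and 28.3% in HCC827ER. STAT2, a part of ISGF3, was at 25.3, 19.5, 20.3, 30.8, 35.5 and 31.5 CPM. IRF9, the DNA-binding part of that complex, was at 5.86, 14.1, 9.57, 17.3, 13.3 and 22.3 CPM, and its 2.41-fold higher level in PC-9GR (1.90 to 3.07) was that difference. IRF1, itself a target of interferon signalling, was at 27.5, 37.1, 42.8, 53.4, 46.0 and 46.1 CPM. IRF7, which drives interferon alpha genes, was at 7.28, 3.58, 5.28, 11.2, 14.4 and 13.9 CPM, and its log2 ratio of -0.998 in PC-9GR just missed the threshold. For STAT2, IRF1 and IRF7 all lines of HCC827 origin lay above all lines of PC-9 origin. That order was found in 12.5% of all genes.

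ISG15 and its conjugating enzymes had different patterns over the lines. UBE2L6 (chr11:57551656-57568284), the conjugating enzyme that hands ISG15 on to its ligases, was at 16.9, 40.2, 42.9, 31.4, 17.6 and 79.5 CPM. It was 2.38-fold higher in PC-9GR (2.08 to 2.74), 2.54-fold in PC-9ER (2.21 to 2.92) and 2.53-fold in HCC827ER (2.28 to 2.82), and lower in HCC827GR at a ratio of 0.560 (0.479 to 0.653). The edgeR fit for derived against parental lines gave 1.11 ± 0.72, which did not pass. The ligase HERC5 was at 0.710, 9.35, 2.20, 2.75, 1.54 and 0.520 CPM, 13.2-fold higher in PC-9GR (7.34 to 26.0) and lower in HCC827ER at a ratio of 0.189 (0.0807 to 0.396). These values rest on 9 to 167 counts per library, and the difference between the families was not called by edgeR. Its neighbour HERC6 was at 6.27, 9.91, 9.05, 14.8, 9.08 and 3.93 CPM, and USP18, the protease that removes ISG15 and damps receptor signalling, at 4.94 to 10.5 CPM. ISG15 itself was lower in PC-9GR than in PC-9, at a ratio of 0.349 (0.254 to 0.475), where UBE2L6 and HERC5 were higher.

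All 3 RNA-sensing members were at least 2-fold lower in HCC827ER, IFIH1 only without TMM scaling, under which its log2 ratio was -0.86. Of all genes 28.3% were lower in that pair. IFIH1 (chr2:162267079-162318703), which encodes the sensor MDA5, was at 8.94, 2.18, 8.41, 12.3, 8.01 and 5.26 CPM. Its ratio was 0.244 in PC-9GR (0.167 to 0.349) and 0.427 in HCC827ER (0.328 to 0.553). EIF2AK2, the kinase PKR that halts translation, was among the most abundant members at 112, 98.0, 104, 130, 73.6 and 31.5 CPM. The 3 lines of PC-9 origin hardly differed, while HCC827GR and HCC827ER were at ratios of 0.566 (0.525 to 0.610) and 0.242 (0.220 to 0.266) to HCC827. The helicase DDX60 was at 2.43 to 8.81 CPM, lowest in HCC827ER.

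The OAS enzymes make the second messenger that activates RNase L. OAS1 (chr12:112906777-112933222) was at 8.23, 34.1, 7.71, 11.2, 3.41 and 8.56 CPM, 4.15-fold higher in PC-9GR (3.44 to 5.02) and lower in HCC827GR at a ratio of 0.304 (0.217 to 0.418). OAS3 (chr12:112938352-112973249), the family's largest enzyme, was at 41.5, 104, 49.5, 89.1, 62.5 and 20.7 CPM, 2.5-fold higher in PC-9GR (2.29 to 2.73) and lower in HCC827ER at a ratio of 0.232 (0.206 to 0.261). OAS2, in the same cluster, did not share the high level in PC-9GR, with 4, 1, 5, 32, 24 and 14 counts. The related OASL, which lacks the enzymatic activity, was at 0.200 to 3.31 CPM.

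The IFIT proteins bind viral RNA and translation factors. In PC-9GR 3 of the 4 were at least 2-fold higher than in PC-9, and IFIT2 was not, where 20.9% of all genes were higher. IFIT1 was at 1.48, 7.56, 1.51, 6.81, 5.68 and 10.1 CPM, with a ratio of 5.11 in PC-9GR (3.32 to 8.17). IFIT5 was at 2.78, 18.9, 1.86, 10.5, 9.35 and 11.2 CPM, with a ratio of 6.78 in PC-9GR (4.99 to 9.41). IFIT3 (chr10:89327894-89340971) was at 2.61, 6.80, 2.55, 14.5, 10.4 and 5.67 CPM, 2.61-fold higher in PC-9GR (1.84 to 3.79) and at a ratio of 0.390 in HCC827ER (0.304 to 0.498). IFIT2, next to them on chromosome 10, ranged only from 2.74 to 5.37 CPM. PC-9 and PC-9ER were thus the low lines for IFIT1, IFIT3 and IFIT5, and PC-9GR lay within the range of the lines of HCC827 origin for IFIT1 and IFIT3 and above it for IFIT5.

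BST2 (chr19:17402939-17405648) had the largest differences from a parent of the abundant members. Its levels were 2.37, 0.0560, 2.20, 54.8, 2.07 and 9.02 CPM, or 40, 1, 38, 796, 31 and 156 counts. HCC827 alone was high, and PC-9GR had a single count. The ratio to the parent was 0.0378 in HCC827GR (0.0255 to 0.0541), 0.165 in HCC827ER (0.138 to 0.196), 0.0237 in PC-9GR (0.0006 to 0.140) and 0.931 in PC-9ER (0.581 to 1.49). The edgeR fit gave -2.17 ± 1.29 for derived against parental lines, adjusted p 0.997.

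SAMD9 (chr7:93099513-93118023), which restricts poxviruses and restrains growth, was at 5.74, 8.34, 6.44, 61.6, 23.2 and 12.7 CPM. HCC827 stood above its derivatives, at ratios of 0.377 in HCC827GR (0.332 to 0.427) and 0.206 in HCC827ER (0.177 to 0.240), and all lines of HCC827 origin stood above those of PC-9 origin. The edgeR fit for the derivatives of HCC827 gave -1.67 ± 0.69, adjusted p 1. The exonuclease ISG20 was at 1.72, 7.39, 1.86, 3.10, 1.60 and 9.43 CPM, at least 2-fold higher in PC-9GR and HCC827ER. TRIM22, a ubiquitin ligase with antiviral activity, reached 50 counts (2.80 CPM) in PC-9GR and at most 2 counts elsewhere. PARP9 and PARP14, which modify proteins with ADP-ribose, were at 23.3 to 69.4 and 31.0 to 80.0 CPM, and both were lower in HCC827ER than in HCC827, at log2 ratios of -1.23 and -1.12, or -0.88 and -0.77 with TMM scaling.

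The IFI genes had different patterns over the lines. IFI6 (chr1:27666061-27672218), a small mitochondrial and endoplasmic reticulum protein that counters apoptosis, was at 1.30, 5.71, 3.25, 7.98, 7.75 and 28.0 CPM. Its ratio was 4.39 in PC-9GR (2.75 to 7.31), 2.49 in PC-9ER (1.5 to 4.29), 0.970 in HCC827GR (0.744 to 1.27) and 3.51 in HCC827ER (2.86 to 4.33). IFI44 (chr1:78649796-78664078) was at 0.473, 0.168, 1.39, 14.0, 5.88 and 9.14 CPM, 2.94-fold higher in PC-9ER than in PC-9 (1.28 to 7.57, on 24 and 8 counts) and lower in HCC827GR at a ratio of 0.418 (0.322 to 0.540). IFI44L (chr1:78619922-78646145) was at 0.0592, 0, 0.290, 12.7, 5.14 and 5.78 CPM, at ratios of 0.406 in HCC827GR (0.307 to 0.532) and 0.457 in HCC827ER (0.354 to 0.586). In the lines of PC-9 origin IFI44 had 3 to 24 counts and IFI44L 0 to 5. IFI35, which binds the related protein NMI, was at 11.1 to 25.5 CPM, with PC-9GR and HCC827ER highest. XAF1 was at 2.42 and 3.47 CPM in HCC827 and HCC827GR and at 0.289 CPM (5 counts) in HCC827ER. LGALS3BP was at 495, 163, 259, 263, 232 and 395 CPM, highest in PC-9 and lowest in the library labelled PC-9GR.

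In HCC827ER short members were mostly higher and long members lower than in HCC827. The 10 members with transcripts under 2000 bases had a median log2 ratio to HCC827 of 0.67, and the 7 with at least 5000 bases a median of -1.79. Over all genes with a length the medians were 0.227 and -0.995. Spearman's correlation of length and log2 ratio was -0.580 over 33 members and -0.384 over 12317 genes, across genes of 1 pair of libraries, which are not independent. In HCC827GR it was 0.083 over 32 members and 0.123 over all genes. PC-9ER, the other ER line, was at -0.102 over 30 members and at -0.369 over all genes. All genes under 2000 bases had a median log2 ratio of 0.307 in PC-9ER, and those with at least 5000 bases -0.32. PC-9GR was at -0.042 over members and -0.14 over all genes, and HCC827 against PC-9 at -0.023 and -0.193. IFI6, ISG15 and UBE2L6, with transcripts of 822, 711 and 1354 bases, were higher in HCC827ER, and EIF2AK2, OAS3 and SAMD9, with 10042, 6719 and 6852 bases, were lower. BST2, at 1019 bases, was short and lower, and so were IFI44 and OAS1, at 1687 and 1684 bases and log2 ratios of -0.61 and -0.39. The part of transcript length, and of the larger share of ribosomal protein counts in this library, in these results was not tested.

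**Figure D4:**
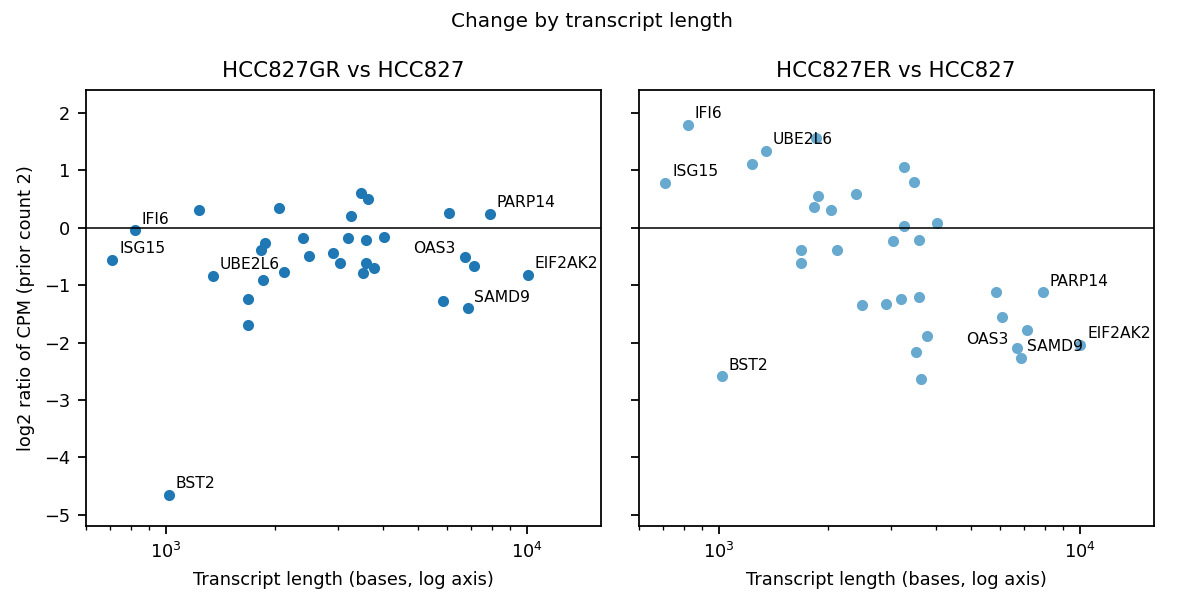
Log2 ratio of CPM to HCC827 (prior count 2) against transcript length in bases (log axis) for the members with at least 1 CPM in either library, in HCC827GR (left, 32 members) and HCC827ER (right, 33 members). Points tend to fall from left to right in HCC827ER, with wide scatter and BST2 short but low, and show no such slope in HCC827GR.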

How the data were processed

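The values are expected counts per gene, estimates that are not always whole, as the authors deposited them in 2 tables of 16854 and 16306 genes, of which 16000 were in both. Per the submitters' processing notes, reads were aligned with HISAT2 2.0.4 to GRCh38.p13 and Cuffdiff was used. The program that counted is not given in the sources used for this text. Between 13.2% and 14.3% of values per library were not whole, in the members those of IFIT3, IRF1, MX1 and XAF1, and all were rounded for tests. Tests used edgeR 4.0.16 in R 4.3.3 (TMM, default expression filter, robust quasi-likelihood fits, Benjamini-Hochberg at 0.05 over 14233 genes), on all 6 libraries with 3 or 2 residual degrees of freedom, so the spread is that between lines. A p-value says nothing of repeat cultures of 1 line. DESeq2 1.42.0 and limma-voom (limma 3.58.1), other scalings, prior counts and filters, and leaving out each library were alternatives. The code was tested on simulated data. Fold intervals in single pairs are exact binomial (Clopper-Pearson) ones on unscaled counts, and reads carry no molecular identifiers. Gene positions and transcript lengths are from GENCODE v29 (GRCh38). All values per library were given for members with at least 10 CPM in 1 library and a log2 ratio of at least 1 either way in 2 or more pairs (IFIT3, IFI6, IFI44, IFI44L, IFIH1, OAS1, OAS3, BST2, SAMD9 and UBE2L6), and other members shown with 6 values were picked after those values had been seen. The members, lists and tests were chosen with earlier results of these data known. A result on 1 gene upstream of the members is not reported here.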

Additional observations from a re-analysis of the deposited data

How the results depend on the processing

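Across the alternatives (scaling, prior count, filters, DESeq2, limma-voom and each left-out library), 128 summary values stayed on their side of the threshold, within 1.5 times for counts or within 0.1 (log2) for medians. Another 17 moved beyond these limits, 2 medians changed sign and 3 counts of called members rose above 0. The median fitted member change for derived against parental lines, -0.05, turned to 0.3885 without HCC827 and 0.0332 without HCC827GR. Its range was -0.2808 to 0.3885 over single libraries left out. The ends of that range are the fits without PC-9 and without HCC827, which rest on the other family alone. For HCC827 origin against PC-9 origin this range was 0.53 to 0.82. For the derivatives of PC-9 it was 0.1071 to 0.3885, with 0.1587 in limma-voom, for those of HCC827 -0.5537 to -0.0426, with -0.4494 in limma-voom, and for the difference of changes -1.3396 to -0.3833, with -0.7008 in limma-voom. The cause of the other shifts was not tested. The median log2 ratio of the members moved to 0.565 in PC-9GR with members of at least 1 CPM only, and in HCC827ER to -0.0398 with TMM scaling and to -0.266 with totals that leave out ribosomal protein genes. Without a minimum CPM, 7 of 38 members were lower in PC-9GR, against 19.8% of all genes, and 1 of 38 higher in HCC827GR, against 8.74%. For HCC827 origin against PC-9 origin DESeq2 called 8 members. Leaving out single libraries gave 0 to 3 calls there, 3 without PC-9GR, and 0 to 1 for the derivatives of PC-9, 1 without PC-9ER, where the lone derivative is assumed to vary like the other groups. Over the 11 settings run, the adjusted p of MX1 ranged from 2.58e-06 to 0.316. The number of members with every HCC827 line above every PC-9 line was 14 with TMM scaling and 12 to 16 when single libraries were left out, alternatives that were chosen after seeing the data. The share of all genes with that order was 14.1% with TMM scaling and 14.0% to 22.9% with a library left out. It was 22.9% in both settings that gave 16 members, without PC-9GR and without HCC827ER. Over all genes the count for origin was 1707 with DESeq2, 48 with limma-voom, 60 with RLE size factors, 79 with no filter, and 0 to 1292 when single libraries were left out, 1292 without PC-9GR. For the derivatives of PC-9 it was 102 with DESeq2 and up to 1223 without a library, PC-9ER, and for those of HCC827 44 with DESeq2 and up to 161, without PC-9GR. For derived against parental lines it was 36 with DESeq2, and for the difference of changes 29 with DESeq2 and up to 544, without PC-9ER. Fits within a family without its parent could not be made. No paired analysis was possible because no line has a second library to pair by replicate number, and the fit of derived against parental lines takes line of origin as its covariate. Members under about 0.2 CPM cannot be compared at this depth.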

Other observations

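Beyond the 38 genes, lists of related genes were read in the same fits. Of 31 further interferon-stimulated genes tested, edgeR called 0 in each of the 5 comparisons, and 25 had fitted changes above 0 in HCC827 origin against PC-9 origin, with a median of 0.75 against -0.02 over all genes. Of 17 genes typical of interferon gamma responses 15 were above 0 there, with a median of 0.58, and edgeR called 0. Of 17 nucleic acid sensing genes tested edgeR called 1, TBK1, the kinase that activates IRF3, and of 9 negative regulators it called 0. In that comparison 8 of the 17 were above 0, with a median of -0.22, and 5 of the 9, with a median of 0.40. Of 11 receptors and kinases 4 were above 0, with a median of -0.08. TBK1 was at 41.4, 47.9, 38.2, 362, 449 and 242 CPM, in the same order of lines as above, with a fitted log2 change of 3.08 ± 0.34 and an edgeR adjusted p of 0.0417. The nuclear DNA sensor IFI16 was at 0.237, 2.91, 0.116, 55.6, 41.6 and 53.9 CPM (5.86 ± 1.30, edgeR adjusted p 0.137). APOL1, a serum lipoprotein component that kills trypanosomes, was at 9.65, 32.0, 16.1, 332, 137 and 237 CPM (3.76 ± 0.68, edgeR adjusted p 0.0871). SAMHD1, which depletes nucleotides that viruses need, went the other way, at 19.5, 23.7 and 26.5 CPM in the lines of PC-9 origin and at 0, 0.138 and 0 CPM in those of HCC827 origin (edgeR adjusted p 0.0503). TBK1, IFI16, APOL1 and SAMHD1 were picked after their values had been seen.

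By the rule on size, at least 4-fold in 1 direction in 2 or more pairs, 7 genes of these lists were named. IFITM2, a membrane protein that blocks virus entry, was at 0.178, 41.4, 0.232, 0.619, 2.67 and 3.95 CPM. Its values are uncertain because it has close paralogs and several of its counts were not whole. IFITM3, a paralog not named by the rule, was at 31.6, 3.58, 41.4, 198, 181 and 426 CPM. It was lower in PC-9GR, where IFITM2 was higher, and both were higher in HCC827ER. The assignment of reads between them was not tested. TMEM140 was at 0.414, 6.57, 0, 0.352, 15.5 and 42.9 CPM. GMPR was at 0, 0.448, 0, 0.964, 3.47 and 5.73 CPM. GBP5, a guanylate-binding protein of the gamma response, was at 4.55, 0.958, 1.86, 5.16, 2.01 and 0.811 CPM, above its level in every derivative in both parents. CXCL10, IRF8 and AIM2 stayed under 2 CPM in all libraries.

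The gamma-type genes and the members differed in PC-9GR. Of 15 gamma-type genes measured in that pair 11 were at least 2-fold lower than in PC-9 and 2 higher, against 20.9% of all genes each way, whereas 4 of 30 members were lower and 11 higher, and the difference between the lists was not tested. The adhesion molecule ICAM1 was at 492 CPM in PC-9 and 3.14 CPM in PC-9GR. The guanylate-binding proteins GBP1, GBP2 and GBP3 were at 23.4, 38.5 and 36.3 CPM in PC-9 and at 0.336, 3.14 and 3.58 CPM in PC-9GR. These genes were picked after their values had been seen.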
